A study of Mus musculus with 12 samples.

Results

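The genes described are 10 immune checkpoint ligands and receptors, taken by symbol from the 18180 rows of the deposited expression table: *Cd274*, *Cd276*, *Cd80*, *Cd86*, *Vsir*, *Havcr2*, *Cd47*, *Sirpa*, *Nectin2* and *Pvr*. All 10 were in the table, and each was measured above a floor of 3 reads in every library, with *Cd80* the lowest at 41.25 reads. They were measured by bulk RNAseq in 12 libraries, from EGFR+ cells of 3 mouse GBMs (T3, T4 and T5) that were flow sorted into 4 populations, PDGFRA+, PDGFRA-, GAL1+ and GAL1-. Every group thus held 3 samples, 1 from each tumor. All tumors were started in adult mice of mixed strain background (C57Bl/6J, 129S4, FVBN/J and Balb/cJ in the labels) by intracranial Cre lentivirus, and they share conditional overexpression of human *EGFR* and deletion of *Cdkn2a*, so there is no group without these alleles. GBMs were at end stage and untreated as far as the labels say. EGFR was stained together with either PDGFRA or Galectin-1 (GAL1, the product of *Lgals1*), so the PDGFRA and GAL1 populations are separate sorts of the same tumors and may hold the same cells. CD45 is named for this sort in the study's results and not in its methods paragraph on the sort.

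Immune checkpoints are pairs of surface proteins through which a cell restrains or permits an attack on itself. Ligands of the B7 family, such as PD-L1 and CD80, meet receptors on T cells, CD47 meets SIRP-alpha on phagocytes and tells them not to engulf the cell, and the poliovirus receptor relatives PVR and NECTIN2 meet activating and inhibitory receptors on T and NK cells. In brain tumors such proteins can be carried by cancer cells and by the microglia and macrophages around them. The study's single-cell data from the same mouse model placed most checkpoint transcripts in CD45+ immune cells, chiefly T and myeloid cells. There the study found more *Cd274* in neutrophils, dendritic cells and macrophages, and it found *Vsir* in microglia. In bulk RNA, fewer cells of a type and less RNA per cell cannot be told apart, which holds for every difference given here.

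Most members rose and fell together across the 4 populations, as described below, and the bases before the transcription start of 3 of them are printed here to show the DNA that stands at these starts. For 7 of the 10 members a promoter was matched by symbol in RefSeq (GRCm38.p6); *Sirpa*, *Cd86* and *Pvr* were not matched. The 250 bases upstream of the start are given 5′ to 3′ on the gene's strand, and capitals mark a PU.1 core motif (GAGGAA, searched on both strands), the letters bound by a transcription factor of myeloid cells. The windows are chr11:46454681-46454930 (+ strand) for *Havcr2*, chr19:29367188-29367437 (+) for *Cd274* and chr10:60346601-60346850 (+) for *Vsir*, and each ends at the base before the RefSeq start.
Havcr2: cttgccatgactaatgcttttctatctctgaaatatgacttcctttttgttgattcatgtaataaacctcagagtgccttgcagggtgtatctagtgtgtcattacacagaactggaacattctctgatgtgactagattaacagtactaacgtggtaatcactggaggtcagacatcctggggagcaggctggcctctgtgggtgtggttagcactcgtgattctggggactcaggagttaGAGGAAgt
Cd274: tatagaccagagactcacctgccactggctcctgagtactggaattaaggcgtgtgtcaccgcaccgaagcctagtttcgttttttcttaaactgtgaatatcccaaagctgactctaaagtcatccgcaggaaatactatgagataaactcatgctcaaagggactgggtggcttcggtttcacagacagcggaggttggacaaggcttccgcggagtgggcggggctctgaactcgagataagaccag
Vsir: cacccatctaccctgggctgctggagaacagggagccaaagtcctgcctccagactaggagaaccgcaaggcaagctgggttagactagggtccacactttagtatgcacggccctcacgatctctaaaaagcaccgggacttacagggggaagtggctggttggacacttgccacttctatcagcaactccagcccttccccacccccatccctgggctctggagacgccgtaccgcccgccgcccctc
The *Havcr2* match lies 8 bases before the start. A PU.1 core was also found in the upstream window of *Cd276*, 126 bases before its start on the other strand, and so in 2 of 7 members, against 23.3% of 32851 mouse promoters. The bases just after the RefSeq start were found in a reference transcript in part for *Havcr2* and *Cd274*, and not for *Cd276*. These distances therefore hold for the RefSeq starts only. A GAS element (TTCNNNGAA), an ISRE core and an NF-kB site, the letters linked to interferon and inflammatory signals, were found in 0 of 7 windows, and in 7.02%, 2.98% and 1.41% of all promoters. Base composition differed widely among the 7 windows. The GC content was 77.6% for *Cd276* and 73.2% for *Cd47*, with 29 and 30 CpG sites, against 44.8% and 2 CpG sites for *Havcr2* and a median of 52.4% and 6 CpG sites over all promoters. The windows of *Nectin2* (62%), *Vsir* (60.4%), *Cd80* (52.8%) and *Cd274* (50.4%) lay between. A match of letters is a description and does not show binding.

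Values are log2 CPM (read counts scaled to library size, on the log2 scale), and they are not divided by gene length, so levels are compared between populations and not between genes. Recovered reads per library ran from 9851175 to 24117541. The sorted genes themselves differed as follows. *Pdgfra* was 10.30 ± 0.45 (SD, n = 3 tumors) in PDGFRA+ and 8.70 ± 1.38 in PDGFRA- cells, with overlapping libraries and a log2 fold change of 1.60 that was not called (limma, adjusted p = 0.249). *Lgals1* was 7.66 ± 0.27 in GAL1+ and 6.38 ± 0.39 in GAL1- cells (1.29, adjusted p = 0.000967). *Ptprc*, which encodes CD45, was read in every population, and GAL1+ cells exceeded GAL1- cells by 4.04 on the log2 scale (limma, adjusted p = 4.77e-05). *Egfr*, whose row cannot be told apart from reads of the human transgene that align to the mouse gene, fell by 2.10 on the log2 scale from GAL1- to GAL1+ cells (limma, adjusted p = 0.000461). The PDGFRA- library of T5 stood apart from the other PDGFRA- libraries and near the GAL1+ libraries, and counts of called members without it are given where they differ.

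Between GAL1+ and GAL1- cells, which asks how the cells bound by the Galectin-1 antibody differ from those that are not, the checkpoint genes were mostly higher in GAL1+ cells. *Cd86*, *Havcr2*, *Vsir* and *Cd274* were 15.7-fold to 20.2-fold higher, *Sirpa* 9.59-fold and *Cd80* 7.57-fold higher, *Pvr* and *Cd47* 2.45-fold and 2.06-fold higher, and *Cd276* was lower. A gene was called when its Benjamini-Hochberg adjusted p over all 18180 genes, from limma with the tumor as a block, was under 0.05. By this rule 9 of 10 members were called, against 58.2% of all genes, 8 of them higher (28.9% of all genes) and 1 lower (29.3%). The libraries of the 2 groups did not overlap for these 9 members, as for 60.6% of all genes. The median log2 fold change was 3.09 over the members and -0.03 over all genes. *Nectin2* was the member that did not pass. Leaving out any tumor left 9 members called, and without the block 8 were called, *Cd276* being lost.

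Among the B7 ligands, *Cd274* encodes PD-L1, the ligand of the T cell receptor PD-1. Its log2 CPM in T3, T4 and T5 was 2.997, 3.75 and 4.86 in GAL1- cells, 5.11, 6.29 and 7.09 in PDGFRA+ cells, 5.97, 5.49 and 8.13 in PDGFRA- cells, and 7.35, 7.61 and 8.57 in GAL1+ cells. All 3 GAL1+ libraries lay above all GAL1- and all PDGFRA+ libraries, and the T5 library was the highest of each group. The log2 fold change of GAL1+ over GAL1- cells was 3.97 (standard error 0.33, limma adjusted p = 3.93e-05), from 3.71 in T5 to 4.35 in T3. *Cd86*, a costimulatory ligand of CD28 that CTLA-4 also binds, was at 2.30, 3.54 and 3.70 in GAL1-, 4.73, 6.24 and 6.47 in PDGFRA+, 5.65, 4.92 and 7.16 in PDGFRA-, and 7.03, 7.44 and 8.08 in GAL1+ cells of T3, T4 and T5. It had the largest log2 fold change of the members in this comparison, 4.34 (standard error 0.39, limma adjusted p = 4.55e-05). *Cd80*, the other ligand of CD28 and CTLA-4, was the member with the fewest reads, and its levels were 0.58, 0.99 and 1.65 in GAL1-, 1.95, 2.50 and 2.85 in PDGFRA+, 3.07, 2.27 and 4.80 in PDGFRA-, and 3.74, 3.88 and 4.36 in GAL1+ cells. In the PDGFRA- library of T5 *Cd80* was above all 3 GAL1+ libraries. Its GAL1 difference was 2.92 (standard error 0.37, limma adjusted p = 0.000150).

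*Vsir* encodes VISTA, a B7 relative that is abundant on myeloid cells. It was at 2.81, 3.87 and 4.08 in GAL1-, 5.28, 6.59 and 6.52 in PDGFRA+, 5.81, 5.39 and 7.49 in PDGFRA-, and 7.32, 7.80 and 7.79 in GAL1+ cells of T3, T4 and T5. The 3 GAL1+ libraries spanned a narrow range above every other group's T3 and T4 libraries, and the log2 fold change over GAL1- cells was 4.05 (standard error 0.38, limma adjusted p = 4.85e-05). *Cd276*, which encodes B7-H3, a B7 protein carried by many solid tumors, had the opposite order. Its log2 CPM was 5.96, 5.83 and 5.30 in GAL1-, 5.93, 5.39 and 4.94 in PDGFRA+, 5.78, 5.73 and 3.42 in PDGFRA-, and 4.80, 4.68 and 3.12 in GAL1+ cells. GAL1+ libraries were the lowest of each tumor, and the T5 library was the lowest of each group. The log2 fold change of GAL1+ over GAL1- cells was -1.49 (standard error 0.33, limma adjusted p = 0.00352), and in T5 it was -2.18 against -1.15 in both other tumors.

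*Havcr2* encodes TIM-3, an inhibitory receptor found on exhausted T cells and also on microglia and dendritic cells. It was at 2.86, 4.25 and 4.52 in GAL1-, 5.19, 6.52 and 7.25 in PDGFRA+, 6.39, 5.57 and 8.19 in PDGFRA-, and 7.34, 7.77 and 8.76 in GAL1+ cells of T3, T4 and T5. As for *Cd274*, the T5 library was the highest of each population, and the GAL1+ libraries lay above all PDGFRA+ and GAL1- libraries. The log2 fold change of GAL1+ over GAL1- cells was 4.08 (standard error 0.40, limma adjusted p = 5.47e-05).

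The ligand and the receptor of the phagocytosis checkpoint differed in the size of their changes. *Cd47*, the ligand, was at 5.88, 5.83 and 5.76 in GAL1-, 6.16, 6.27 and 6.25 in PDGFRA+, 6.29, 6.14 and 6.89 in PDGFRA-, and 6.62, 6.76 and 7.21 in GAL1+ cells. Its whole range over the 12 libraries was 1.45, and the GAL1 difference was 1.04 (standard error 0.17, limma adjusted p = 0.000635). *Sirpa*, the receptor, was at 5.54, 5.80 and 5.44 in GAL1-, 7.02, 7.99 and 7.45 in PDGFRA+, 7.41, 6.65 and 8.41 in PDGFRA-, and 8.69, 9.11 and 8.76 in GAL1+ cells. Every GAL1+ library was above every library of the 3 other populations, and the GAL1 difference was 3.26 (standard error 0.38, limma adjusted p = 0.000109). *Sirpa* has close relatives in the mouse genome, and the authors counted reads with several matches as fractions. Fractional reads were found for *Cd47*, *Cd80* and *Vsir* in 9 of 12 libraries each, and for *Sirpa* and *Pvr* in 5 each. They were found for *Cd274* and *Havcr2* in 4 each, for *Cd276* and *Nectin2* in 3 each and for *Cd86* in 0. Over all genes, 41.3% to 59.2% had whole counts in a library, so fractional reads do not set *Sirpa* apart. Part of the fractional counts may be shared with other rows.

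*Pvr* and *Nectin2*, ligands of the receptors TIGIT and DNAM-1, behaved differently. *Pvr* was at 4.81, 5.13 and 5.16 in GAL1-, 5.21, 5.57 and 5.79 in PDGFRA+, 5.57, 5.65 and 6.18 in PDGFRA-, and 6.08, 6.37 and 6.52 in GAL1+ cells. The GAL1 difference was 1.29 with the smallest standard error of the members (0.11, limma adjusted p = 4.53e-05), from 1.24 in T4 to 1.36 in T5. *Nectin2* was at 4.96, 4.79 and 4.29 in GAL1-, 4.99, 5.04 and 4.65 in PDGFRA+, 4.83, 4.72 and 3.92 in PDGFRA-, and 4.97, 4.73 and 4.49 in GAL1+ cells. The 4 groups of *Nectin2* overlapped, with T5 the lowest library of each. Its GAL1 difference was 0.05 (95% interval -0.26 to 0.36, limma adjusted p = 0.774), an interval that leaves out differences of the size seen for *Pvr*.

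**Figure D1:**
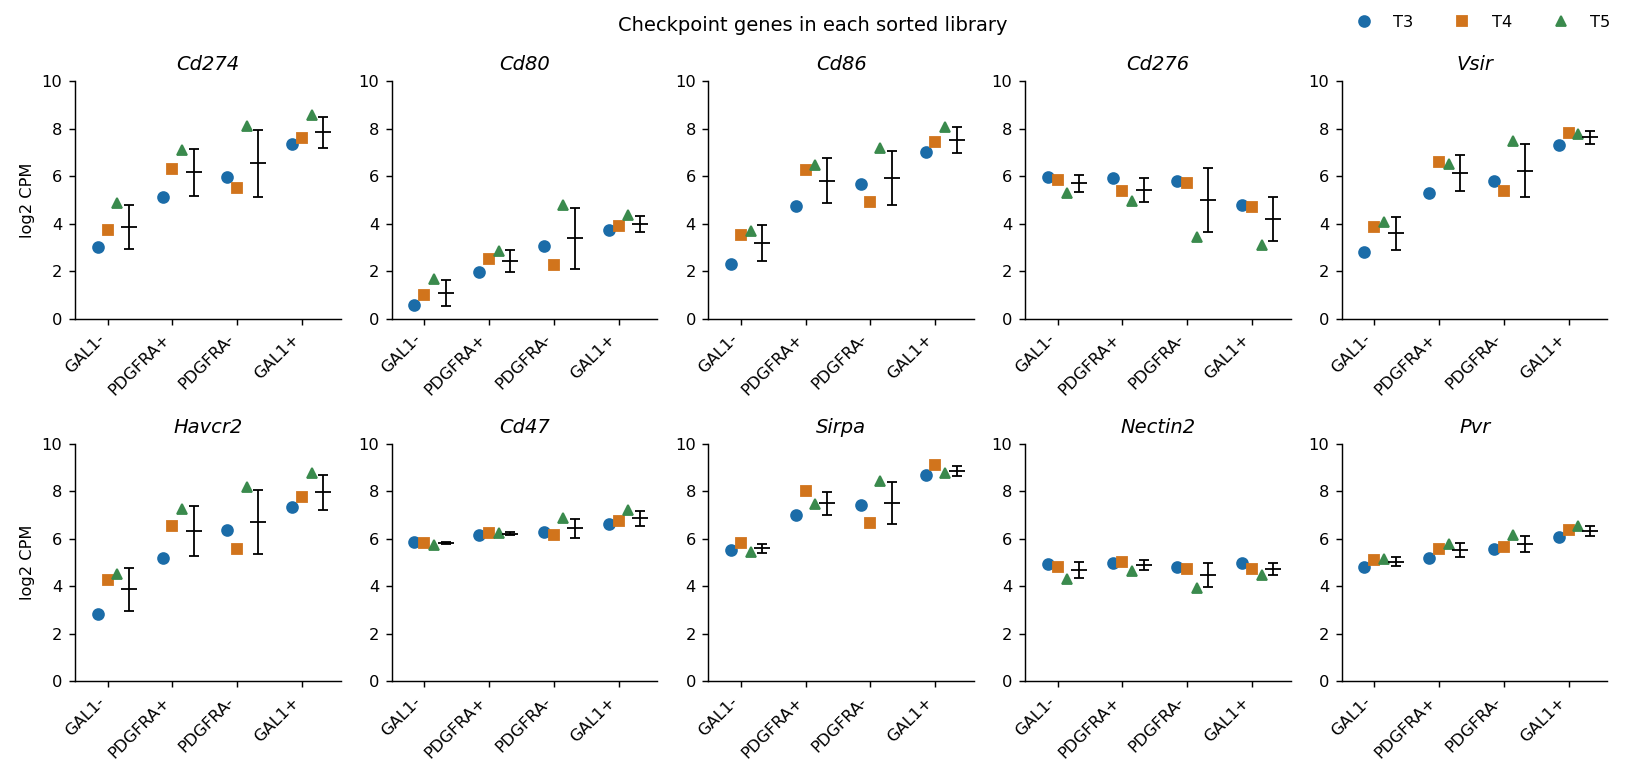
Log2 CPM of the 10 members in each of the 12 libraries, 1 panel per gene, with the 4 sorted populations on the x axis, a symbol for each tumor (T3 circle, T4 square, T5 triangle) and a bar for the mean with the SD of 3 tumors. *Cd274*, *Cd86*, *Vsir*, *Havcr2* and *Sirpa* climb from GAL1- to GAL1+ cells, *Cd276* falls, with T5 at 3.12 in GAL1+ cells, and *Nectin2* stays between 3.92 and 5.04.

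Ordered by their means, 8 members were highest in GAL1+ cells, followed by PDGFRA-, PDGFRA+ and GAL1- cells, and *Cd276* had exactly the reverse order. For *Sirpa* the means of PDGFRA- and PDGFRA+ cells were equal to 2 decimals, 7.49 ± 0.88 and 7.49 ± 0.49 (SD, n = 3). PDGFRA- and PDGFRA+ libraries overlapped for all 10 members, and no member was called between them with limma. The means of *Nectin2* ran from 4.89 ± 0.21 in PDGFRA+ through 4.73 ± 0.24 in GAL1+ and 4.68 ± 0.35 in GAL1- to 4.49 ± 0.50 in PDGFRA- cells, and none of its neighbours in this order differed beyond the spread between tumors.

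The comparison of PDGFRA+ with PDGFRA- cells called 0 of 10 members with limma, as it called 0% of all genes, while 3 members and 2137 of all genes had an unadjusted p under 0.05. No member had groups that did not overlap, against 6.94% of all genes. The median log2 fold change was -0.16 for the members and -0.02 for all genes. The 3 members with an unadjusted p under 0.05 were *Cd80*, *Nectin2* and *Pvr*. *Cd80* had a log2 fold change of -0.94 (95% interval -1.76 to -0.12, limma adjusted p = 0.378), but it was 0.23 in T4 against -1.12 in T3 and -1.94 in T5. *Nectin2* was higher in PDGFRA+ cells of 3 of 3 tumors, by 0.15, 0.32 and 0.73 (fitted 0.40, 95% interval 0.09 to 0.71, limma adjusted p = 0.332). *Pvr* was lower in 3 of 3 tumors, by a fitted -0.28 (95% interval -0.53 to -0.02, limma adjusted p = 0.400). For 7 members, *Cd274*, *Cd80*, *Cd86*, *Vsir*, *Havcr2*, *Cd47* and *Sirpa*, T4 went against the other tumors, with higher values in PDGFRA+ cells in T4 and lower values in T3 and T5. *Sirpa*, for example, differed by 1.35 in T4, -0.39 in T3 and -0.96 in T5, which gave a fitted value of -0.00 with an interval from -0.85 to 0.85. Without the PDGFRA- library of T5 the fitted values of 4 members changed sign, to 0.51 for *Sirpa*, 0.36 for *Vsir*, 0.23 for *Cd86* and -0.00925 for *Cd276*, and 0 were called. *Cd86* differed by 1.32 in T4, -0.93 in T3 and -0.69 in T5. The mean log2 CPM of 12 pan-leukocyte genes moved the same way, from 5.31 in PDGFRA- to 6.28 in PDGFRA+ cells of T4, and from 6.08 to 5.18 in T3 and from 7.41 to 6.23 in T5. Its part in these differences was not tested.

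GAL1+ and PDGFRA+ cells, the pair of positive populations that the study set side by side, differed in 9 of 10 members, against 38% of all genes. In PDGFRA+ cells 8 members were lower (17% of all genes) and 1 was higher (20.9%). The groups did not overlap for these 9 members, as for 46% of all genes, and the median log2 fold change was -1.44 against 0.01 over all genes. The largest decreases were those of *Cd86* (-1.70, limma adjusted p = 0.00933), *Cd274* (-1.68, limma adjusted p = 0.00475) and *Havcr2* (-1.64, limma adjusted p = 0.0124). *Cd80*, *Vsir* and *Sirpa* fell by 1.56, 1.51 and 1.36 on the log2 scale, *Pvr* by 0.80 and *Cd47* by 0.64. *Cd276* was higher in PDGFRA+ cells by 1.22 (limma adjusted p = 0.0181), with 1.82 in T5, 1.13 in T3 and 0.71 in T4. *Nectin2* was not called (0.16, 95% interval -0.15 to 0.47). These calls rest on the tumor block and on T3. Without the block 2 members (*Sirpa* and *Pvr*) and 3154 of all genes were called, and with T3 left out 1 member (*Pvr*) and 2110 of all genes, against 6900 of all genes in the full fit. Without T5 and T4, 7 and 9 members were called, and 4267 and 4863 of all genes.

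**Figure D2:**
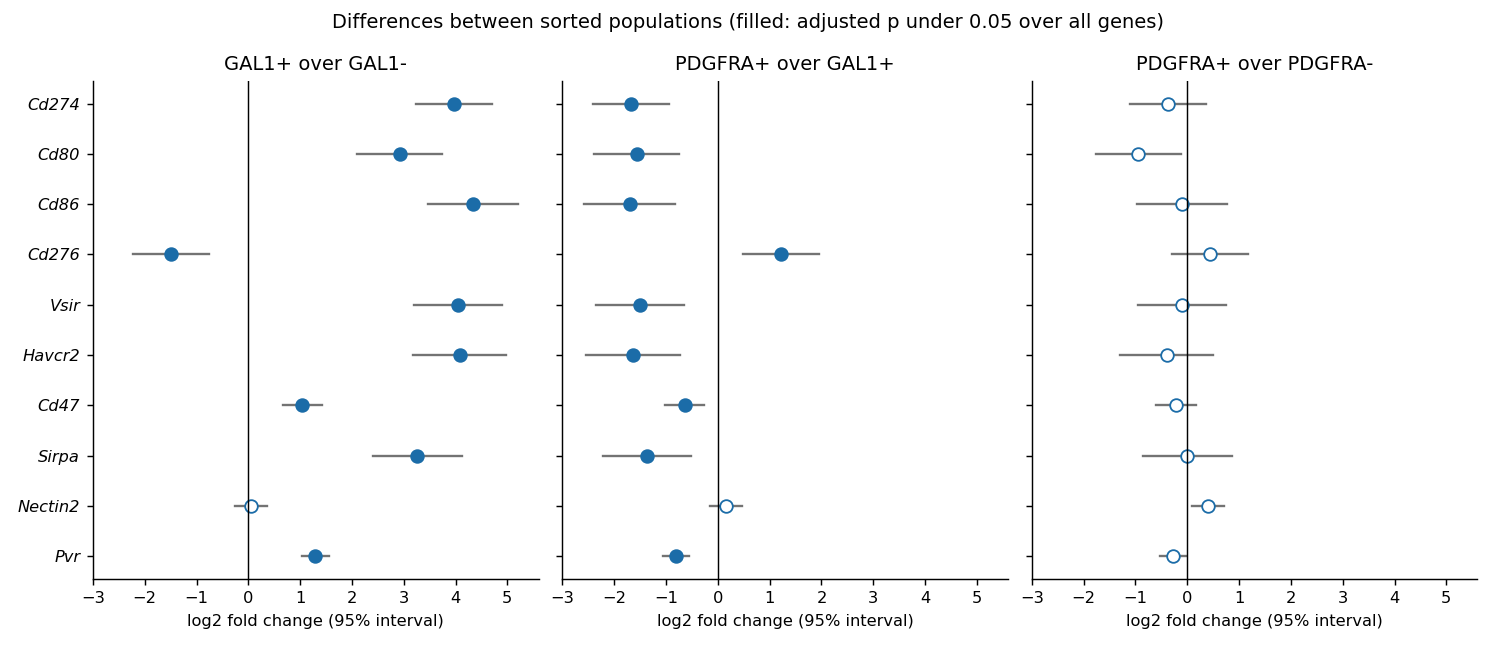
Log2 fold changes (x axis) of the 10 members (y axis) for GAL1+ over GAL1-, PDGFRA+ over GAL1+ and PDGFRA+ over PDGFRA- cells, with 95% intervals from the limma fit; filled points have an adjusted p under 0.05 over all genes. Filled points number 9, 9 and 0 in the 3 panels, and *Nectin2* is open in each of them; the comparisons share libraries, so the panels are not independent of each other.

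Across the sorts, the remaining 3 comparisons share their libraries with those above. Compared with GAL1- cells, 6 members were higher in PDGFRA+ cells, where 8.27% of all genes were called and 8.26% were called higher, and the groups of 8 members did not overlap (24.6% of all genes). They were *Cd86* (2.63), *Vsir* (2.54), *Havcr2* (2.44), *Cd274* (2.29), *Sirpa* (1.90) and *Pvr* (0.49), with limma adjusted p-values from 0.00288 to 0.0277. *Cd80* was higher in 3 of 3 tumors and did not pass (1.36, limma adjusted p = 0.0517), but passed in the fit without the PDGFRA- library of T5, which called 7 members. The count was 0 without T3, 2 without T5 and 3 without the block, while over all genes it went from 1504 to 0, 717 and 612. The call of *Pvr* was also lost when libraries were centred on their medians (limma adjusted p = 0.143), after quantile normalization (0.0714) and with any tumor left out. PDGFRA- cells had 8 members above GAL1- cells, where 23.1% of all genes were called and 16.2% were called higher, and the groups of 8 members did not overlap (28.9% of all genes). *Havcr2* (2.84), *Cd86* (2.73), *Cd274* (2.66) and *Vsir* (2.64) had the largest differences here. This count was 3 without T5 and 5 without T3, while over all genes it went from 4200 to 920 and 1698. Without the PDGFRA- library of T5 it was 7, with *Cd47* lost (limma adjusted p = 0.124), and *Cd47* was lost after median centring too (0.0758). *Cd276* was not called in either comparison (-0.28 and -0.72, limma adjusted p = 0.705 and 0.139). In PDGFRA- over GAL1+ cells 5 members were lower, *Cd86* (-1.60), *Vsir* (-1.41), *Sirpa* (-1.36), *Cd274* (-1.31) and *Pvr* (-0.53), where 20.1% of all genes were called and 6.91% were called lower. The groups of 1 member, *Sirpa*, did not overlap (18.7% of all genes). Without the PDGFRA- library of T5, 9 members and 5837 of all genes were called, against 3652 of all genes in the full fit. Without T5 as a whole, 7 members and 3647 of all genes were called. The PDGFRA- library of T5 was singled out for lying near the GAL1+ libraries. The higher count without it is therefore no added support for these differences. The count of members was 0 without T3, without T4 and without the block, where 788, 0 and 725 of all genes were called. *Sirpa* was also lost after quantile normalization (limma adjusted p = 0.0616).

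The GAL1 difference minus the PDGFRA difference, which rest on separate libraries, was also tested. *Pdgfra* itself was lower by 2.97 on the log2 scale in GAL1+ than in GAL1- cells. It was higher by 1.60 in PDGFRA+ than in PDGFRA- cells, which was not called. For genes that follow *Pdgfra*, positive minus negative thus ran opposite ways in the 2 sorts, and the subtraction adds these differences up. The test therefore cannot show that a difference depends on the antibody. The subtracted value was called for 9 of 10 members, against 51.1% of all genes, with 8 higher (26.2% of all genes) and 1 lower (24.9%). *Havcr2* (4.48), *Cd86* (4.44) and *Cd274* (4.34) had the largest values and *Nectin2* did not pass (-0.35, limma adjusted p = 0.160). Each of the 9 had the same sign in 3 of 3 tumors. They stayed called when any tumor was left out, and without the block 8 were called, with *Cd276* lost. The same 9 members were called between GAL1+ and GAL1- cells. No gene, *Pdgfra* included, was called between PDGFRA+ and PDGFRA- cells, so these calls largely repeat those of the GAL1 comparison.

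Markers of leukocytes, microglia, macrophages and endothelial cells moved with most checkpoint genes, and those of oligodendrocyte precursors moved the other way. The pan-leukocyte list (*Ptprc* and 11 further genes) was called higher in GAL1+ than in GAL1- cells for 12 of 12 genes, with a median log2 fold change of 4.35, and its summed CPM ran from 90.5 to 229 in GAL1-, 625 to 1371 in PDGFRA+, 689 to 2969 in PDGFRA- and 2632 to 3700 in GAL1+ libraries. Microglia and macrophage markers were called higher for 10 of 10 genes each, with medians of 4.45 and 6.20, and endothelial markers for 8 of 8, with a median of 2.69. In GAL1- cells, where the means of these lists were lowest, every pan-leukocyte, microglia and macrophage marker had at least 1 read per library. *Pf4* (1 to 5 reads) and *Fcrls* (2 to 19) went under the floor of 3 reads there. *F13a1* (4 to 10) and *Ms4a4a* (4.5 to 16.58) lay near it, so the fold changes of these markers rest on few reads. T and NK cell markers were called higher for 2 of the 9 in the table, with a median of -0.12, and of 5 B cell markers none was in the table. Oligodendrocyte precursor markers, *Pdgfra* among them, were called lower for 8 of 8 genes (median -2.92). Of 6 pericyte markers 5 were called higher and 1 lower. For dendritic cells 3 of 6 were called higher, for neutrophils 3 of 5 higher, for astrocytes 4 of 8 lower and for neurons 3 of 6 lower. Of the 18180 rows as a whole, 28.9% passed the same rule with a rise in GAL1+ over GAL1- cells, and 29.3% with a fall. A marker list with a share near these values does not stand out from the table as a whole. *Siglech*, *Cspg4* and *Clec12a* each stand in more than a single list. The part of these cells in the checkpoint differences was not tested.

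To set each member beside the leukocyte genes, the mean log2 CPM of the 12 pan-leukocyte genes was subtracted from the member in the same library. For *Vsir* the difference stayed within a range of 0.88 over the 12 libraries, although its level spanned 4.99, and for *Cd86* the range was 0.89 against a level range of 5.78. *Havcr2* (1.11 against 5.91), *Cd274* (1.50 against 5.57), *Cd80* (2.02 against 4.21) and *Sirpa* (2.20 against 3.68) also varied less after the subtraction. The leukocyte mean itself ran from 2.34 to 7.65, so members whose own level spanned little, such as *Pvr* (1.71), *Cd47* (1.45) and *Nectin2* (1.12), vary more after it by arithmetic, and their differences are not used to say how closely they followed. *Cd276*, with a level range of 2.84, had a range of 8.14 after the subtraction, having moved the other way. Pearson correlations with the leukocyte mean over the 12 libraries, which come from 3 tumors and share their sorts, were 0.993 for *Vsir*, 0.988 for *Cd86*, 0.938 for *Pvr*, 0.897 for *Cd47*, -0.214 for *Nectin2* and -0.712 for *Cd276*. With *Egfr* the correlation was 0.941 for *Cd276* and 0.501 for *Nectin2*. For the other members it ran from -0.821 for *Sirpa* to -0.958 for *Cd47*.

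**Figure D3:**
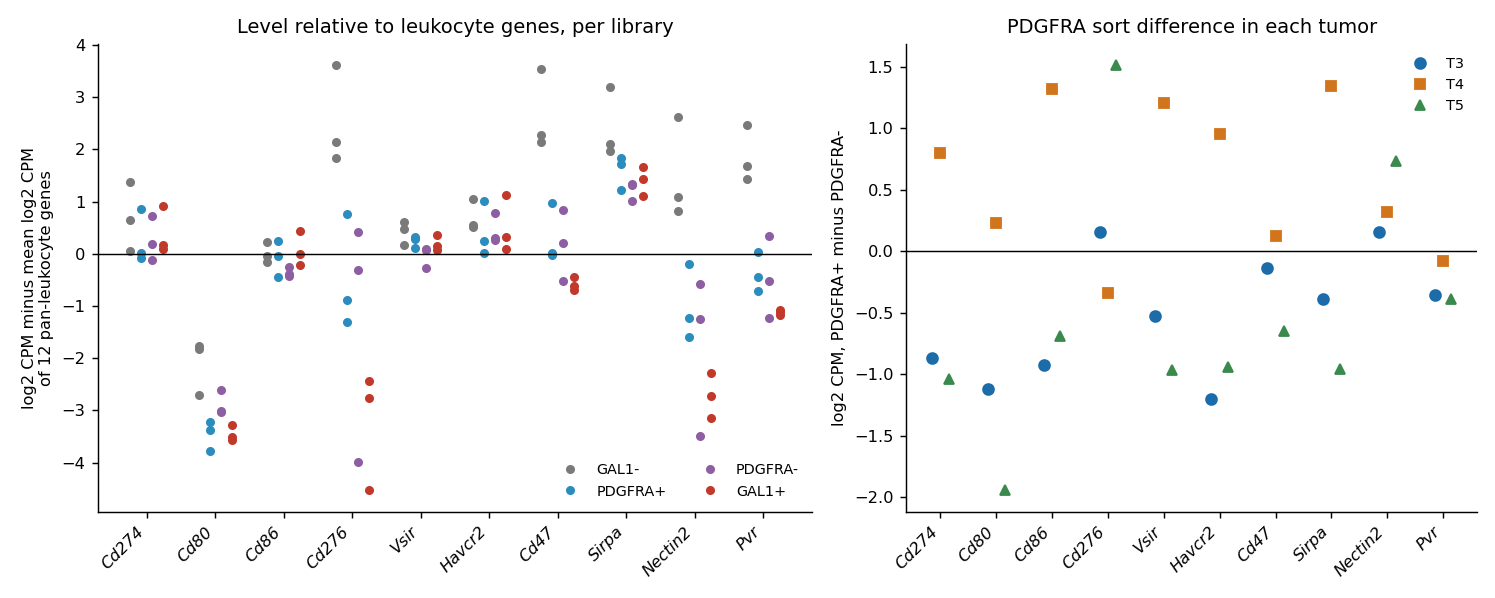
Left, log2 CPM of each member minus the mean log2 CPM of 12 pan-leukocyte genes in the same library (y axis), with a point per library coloured by population. Right, log2 CPM of PDGFRA+ minus PDGFRA- cells in each tumor. *Vsir* and *Cd86* lie close to a constant in every population while *Cd276* spreads from -4.53 to 3.61, and on the right the T4 squares lie above 0 for the 7 members whose T3 and T5 values lie below it.

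By Pearson correlation over the same 12 libraries, *Cd86* was nearest to *Ptafr*, *Cd33* and *Tnfrsf1b* (0.999 to 0.996), *Vsir* to *Inpp5d*, *Cd33* and *Nrros* (0.998), and *Havcr2* to *Sla*, *Csf2rb* and *Clec7a* (0.997 to 0.995). *Ptafr* encodes a receptor for platelet-activating factor, *Cd33* a sialic acid binding receptor of myeloid cells and *Clec7a* the beta-glucan receptor Dectin-1. *Cd274* was nearest to *Rubcnl*, *H2-DMb1* and *Xdh*, *Sirpa* to *Junb*, *Cotl1* and *Mapkapk2*, *Cd80* to *Syngr2*, *Rgs2* and *Fam174a*, *Cd47* to *Hif1a*, *Mtmr6* and *Dazap2*, and *Pvr* to *Snap23*, *Spty2d1* and *Tbc1d2b*, with correlations from 0.987 to 0.995. *Cd276* was nearest to *Arpin*, *Adam12* and *Serpine2* (0.988 to 0.986). *Nectin2* had the lowest likeness to its nearest genes, *Uaca*, *Pcyox1* and *Nup160* (0.941 to 0.918). Among the members, *Cd86* and *Vsir* had the highest correlation (0.994) and *Cd276* and *Cd47* the lowest (-0.875).

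Of 18 direct partners of the members, 17 were in the table, and in GAL1+ over GAL1- cells 7 were called higher, 3 lower and 7 were not called. The share called was near the 58.2% of all genes called here. Higher were *Ptpn6* (4.49), the phosphatase SHP-1 that acts below SIRP-alpha, *Selplg* (3.97), which encodes PSGL-1, *Thbs1* (3.83), a secreted ligand of CD47, *Lgals9* (2.94) and *Ceacam1* (2.43), ligands of TIM-3, *Pdcd1lg2* (2.93), the other ligand of PD-1, and *Pvrig* (1.77), a receptor for NECTIN2. *Tigit* (-1.17), *Ptpn11* (-0.33) and *Bag6* (-0.33) were lower. The T cell receptors of the B7 ligands did not pass, with log2 fold changes of 0.02 for *Pdcd1* (limma adjusted p = 0.965), 0.27 for *Cd28* and -0.57 for *Ctla4*. They were low in all 4 populations, *Pdcd1* at means from 1.60 to 2.47, *Cd28* from 0.28 to 1.39 and *Ctla4* from 1.53 to 2.90 in log2 CPM, each highest in PDGFRA- cells. *Tigit*, at 9 to 16 reads per library in GAL1+ cells, and *Pvrig*, at 10.5 to 42 in GAL1- cells, rest on few reads. In PDGFRA+ over GAL1+ cells 6 of the 17 partners were lower and 0 higher, with *Thbs1* (-1.86) the largest. The share of partners called was near the 38% of all genes called there, 17% lower and 20.9% higher. In PDGFRA+ over PDGFRA- cells 0 partners and 0% of all genes were called with limma.

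Among 31 other checkpoint and costimulation genes, 21 were in the table, and 12 of them were called higher and 3 lower in GAL1+ over GAL1- cells, where 28.9% of all genes were called higher and 29.3% lower. *Cd244a* (5.18), *Pirb* (4.91), *Lilrb4a* (4.52) and *Cd200r1* (4.50), inhibitory or regulatory receptors of leukocytes, had the largest values, and *Lag3* (4.18), *Icosl* (3.57) and *Cd40* (3.44) were also higher. In GAL1- cells *Cd200r1* had 3 to 19.5 reads per library, *Cd244a* 7 to 37 and *Pirb* 10.45 to 26.14. The values of *Cd200r1*, *Cd244a* and *Pirb* thus rest on few reads there. *Nectin1* (-1.76), *Nt5e* (-1.16), which encodes the adenosine-producing CD73, and *Tnfsf9* (-1.03) were lower, and in PDGFRA+ over GAL1+ cells these same 3 genes were the ones called higher (1.52, 0.97 and 0.87), while 9 were lower. Of 18 other phagocytosis signals, all in the table, 12 were called higher and 3 lower in the same comparison. The engulfment receptors *Stab1* (5.66), *Mertk* (3.94) and *Axl* (2.83) were higher, and so were *B2m* (1.43) and *Calr* (0.74), a signal not to engulf and a signal to engulf. *Adgrb1* (-2.72), *Itgav* (-0.95) and *Mfge8* (-0.69), a receptor, an integrin subunit and a bridging protein for dying cells, were lower, and again were the 3 called higher in PDGFRA+ over GAL1+ cells (2.39, 0.84 and 0.70), where 11 were lower. These 2 comparisons share the GAL1+ libraries, and in PDGFRA+ over GAL1+ cells 17% of all genes were called lower and 20.9% higher.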

How the data were processed

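RNA of EGFR+ cells sorted by PDGFRA or GAL1 from 3 tumors was sequenced from stranded total RNA libraries. The authors trimmed reads with fastp, aligned them with STAR to mm39, counted exons with featureCounts (multi-mapping reads as fractions), dropped genes unless 3 or more samples had a CPM over 1, scaled libraries by TMM and applied voom. The deposited values are log2 CPM with an offset of 0.5 reads, 18180 genes by 12 samples. To recover reads, each library's lowest value was taken as a count of 0, and the floor of 3 reads covers counting error only.

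Populations were compared with limma 3.58.1 in R 4.3.3 on the deposited values of all 12 samples, with a term per population, the tumor as a block and a mean-variance trend, and p-values were adjusted over all genes. The tumor numbers in the labels pair the libraries, since same-numbered libraries come from the same tumor. After population means were subtracted, libraries of the same tumor had a mean correlation across genes of 0.486 (18 pairs) and those of different tumors -0.243 (36 pairs). The subtraction makes the deviations within each population cancel out. The negative value therefore follows from the positive by arithmetic and is not separate evidence of the pairing. The fit was also run on simulated counts, with far fewer changed genes than were called here and a preset spread between tumors. That run does not show how the fit performs on these data. The members and the lists of partners, other checkpoint genes, phagocytosis signals and markers were chosen with earlier results of these data known. Named genes are the members, genes of these lists and the 3 genes most correlated with each member, predicted genes left out. Promoter coordinates are of GRCm38.p6, since the genome used here was not mm39. A further item of the genotype is not reported here. Figures were drawn with matplotlib 3.10.9.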

Additional observations from a re-analysis of the deposited data

Results flagged for a closer look

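The GAL1 difference (GAL1+ minus GAL1- cells) and the PDGFRA difference (PDGFRA+ minus PDGFRA- cells) of 9 members differed from each other by a test of that difference in the limma fit, with the tumor as a block, where 51.1% of all genes did. The same 9 were called for the GAL1 difference alone, and no gene was called for the PDGFRA difference. *Pdgfra* itself ran opposite ways in the 2 sorts, so the test cannot show that a difference depends on the antibody. On the log2 scale the GAL1 difference exceeded the PDGFRA difference by 4.34 for *Cd274*, 1.26 for *Cd47*, 3.26 for *Sirpa*, 3.86 for *Cd80*, 4.44 for *Cd86*, 4.48 for *Havcr2*, 4.15 for *Vsir* and 1.57 for *Pvr*. For *Cd276* the value was -1.94. Adjusted p-values of the 9 ran from 0.000274 to 0.00690, and each had its sign in 3 of 3 tumors. The pan-leukocyte genes differed in the same way, with a median of 4.70, and their part was not tested.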

How the results depend on the processing

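Of the member results under the alternatives of block, samples, eBayes, weights, filter, pseudocount, scaling and left-out libraries, 870 kept their direction and their side of the threshold, 72 lost their call, 14 gained one and 14 changed sign. Without the replicate block (the pairing by tumor), 2 members were called in PDGFRA+ over GAL1+, 0 in PDGFRA- over GAL1+ and 3 in PDGFRA+ over GAL1- cells, and the block changed no other count by over 1.5 times. PDGFRA- over GAL1+ gave 3 members both in the fit to these 2 groups only and without a trend. Over all genes 1893 and 2693 were called in these fits, against 3652 in the full fit. With libraries or tumors left out, counts ran from 1 to 9 in PDGFRA+ over GAL1+, 0 to 9 in PDGFRA- over GAL1+, 0 to 7 in PDGFRA+ over GAL1- and 3 to 8 in PDGFRA- over GAL1- cells. The changes of sign were for differences that were not called. *Nectin2* in GAL1+ over GAL1- cells ran from -0.027 to 0.107. In PDGFRA+ over PDGFRA- cells *Cd276* ran from -0.0945 to 0.831, *Sirpa* from -0.67 to 0.51 (0.0561 after quantile normalization), *Cd86* from -0.81 to 0.31, *Havcr2* from -1.07 to 0.00437 and *Vsir* from -0.75 to 0.36. The cause was not tested. With 3 tumors per group, 1 tumor decides many calls, and the GAL1- libraries, which had the lowest levels of most members, were also the most deeply sequenced.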
